A study of Mus musculus with 12 samples.

Results

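Interferon-stimulated genes (ISGs) and guanylate-binding protein (GBP) genes were followed in alloresponding donor CD4+ T cells of mice, 48 hr into a graft-versus-host response. The set was a list of 39 gene symbols, and each gene was read at the probe set with 1 symbol that had the highest mean over all arrays. By that rule 32 of the 39 were measured, out of 19938 genes in all. Isg15, Gbp2, Gbp6, Ifi47, Igtp and Irgm2 lay on probe sets shared with other genes and Ifi44 on none that carried its symbol, so the expression of these 7 as single genes was not analysed here. Where the promoter table held them, they enter the promoter counts.

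The arrays held RNA of C57Bl/6 spleen cells injected i.v. into B6D2F1 hosts and sorted as CD4+ cells with 2 or more divisions, read from the loss of CFSE, a dye that is shared out at each division. The 3 groups had 4 arrays each, 12 in all: hosts given TCDD i.p. at 15 µg/kg on day 0, hosts given Cl-BBQ i.p. at 2 mg/kg on days 0 and 1, and hosts given vehicle on days 0 and 1. Donors and hosts were purchased mice of 10 to 12 weeks, every host, vehicle included, received the donor cells, and spleen and lymph node were the tissues harvested on day 2. TCDD is a persistent dioxin and Cl-BBQ another ligand of the aryl hydrocarbon receptor (AhR), a ligand-activated transcription factor. Dose and schedule differed between the compounds, and TCDD also differed from vehicle in schedule.

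Interferons are cytokines that switch on antiviral genes. Type I interferons act through the receptor chains IFNAR1 and IFNAR2 and a complex that holds STAT2 and IRF9, which binds interferon-stimulated response elements (ISREs); interferon-gamma, a product of activated Th1 cells, acts through IFNGR1 and IFNGR2 and leads to binding at gamma-activated sites (GAS). GBPs and immunity-related GTPases are large families of GTPases that attack the vacuoles of intracellular microbes and respond strongly to interferon-gamma.

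The sequences before the starts of 3 neighbouring GBP genes and of Irf1 are shown because Gbp7 and Gbp3 had the clearest differences among the members and Gbp5 ran the other way. They are the 250 bases before the first listed start (RefSeq, GRCm38.p6), 5′ to 3′; capitals mark matches, on either strand, to the core of an ISRE (GAAA, any 2 bases, GAAA) or to TTCNNNGAA, the GAS pattern, which reads the same on both strands.
Gbp7, chr3:142530086-142530335, plus strand: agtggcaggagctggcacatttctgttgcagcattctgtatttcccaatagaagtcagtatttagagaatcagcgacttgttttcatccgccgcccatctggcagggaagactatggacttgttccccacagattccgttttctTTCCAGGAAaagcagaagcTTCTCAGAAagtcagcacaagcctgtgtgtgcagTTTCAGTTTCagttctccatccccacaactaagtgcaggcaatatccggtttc
Gbp3, chr3:142559794-142560043, plus strand: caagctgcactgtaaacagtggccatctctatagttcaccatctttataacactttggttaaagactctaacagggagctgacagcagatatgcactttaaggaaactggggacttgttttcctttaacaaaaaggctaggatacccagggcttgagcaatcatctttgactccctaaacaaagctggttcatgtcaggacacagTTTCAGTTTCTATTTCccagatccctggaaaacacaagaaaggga
Gbp5, chr3:142496684-142496933, plus strand: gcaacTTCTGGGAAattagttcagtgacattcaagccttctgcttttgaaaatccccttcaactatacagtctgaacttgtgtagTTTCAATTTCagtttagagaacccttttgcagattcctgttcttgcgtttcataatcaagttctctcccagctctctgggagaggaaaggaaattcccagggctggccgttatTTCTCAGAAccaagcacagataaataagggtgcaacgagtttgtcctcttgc
Irf1, chr11:53769764-53770013, plus strand: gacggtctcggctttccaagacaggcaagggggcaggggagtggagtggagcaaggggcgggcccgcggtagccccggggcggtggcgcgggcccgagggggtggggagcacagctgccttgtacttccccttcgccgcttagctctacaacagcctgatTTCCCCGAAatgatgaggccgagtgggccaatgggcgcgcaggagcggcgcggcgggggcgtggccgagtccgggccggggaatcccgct

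All 3 GBP windows held the ISRE core, with its first base 53 bases before the start in Gbp7, 45 and 39 bases before it in Gbp3 (a pair of overlapping matches) and 165 bases before it in Gbp5. Gbp7 and Gbp5 each held 2 GAS matches and Irf1 held 1, at 90 bases. Among the 31 listed genes with a promoter in the table, 16 (51.6%) held an ISRE core in these 250 bases, against 3.46% of the 27025 genes with a promoter. A GAS pattern stood in 9 of the 31 (29%), against 8.13% of all genes. GCGTG, the core of the AhR binding element, searched on both strands, stood in 10 of the 31 (32.3%), against 30.9% of all genes. These matches describe letters in a window and not binding. Of the 32 measured members 25 had a promoter entry, and their median log2 changes are given as a description without a test. With TCDD the median was 0.13 in the 12 with an ISRE core and -0.00012 in the 13 without one, 0.058 in the 7 with a GAS pattern and 0.029 in the 18 without one, and -0.066 in the 8 with GCGTG and 0.087 in the 17 without it. With Cl-BBQ the medians were 0.054 with an ISRE core and 0.017 without, -0.016 with a GAS pattern and 0.051 without, and -0.019 with GCGTG and 0.057 without.

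Between arrays r across probe sets was 0.988 to 0.995. Cyp1b1, a cytochrome P450 gene and known AhR target, checked the treatment. It read 9.67, 9.92, 9.91 and 9.92 on the TCDD arrays, 8.24, 7.90, 5.93 and 7.89 on the Cl-BBQ arrays and 6.25, 6.57, 6.31 and 6.32 on the vehicle arrays. The array labelled Cl-BBQ 3 thus lay below every vehicle array in this gene. Of 4 other AhR targets, it lay above every vehicle array in Nqo1, a quinone reductase gene (6.59, against a highest vehicle value of 6.52), and Ahrr, the AhR repressor gene (5.95, against 5.88). In Cyp1a1 it lay within the vehicle range, in Tiparp just below it, and in all 5 genes it was the lowest Cl-BBQ array. The differences with Cl-BBQ of the genes described most closely are also given without it. All 5 AhR targets were called higher with TCDD (limma adjusted p of 0.000494 or lower). None of them was called with Cl-BBQ (limma adjusted p from 0.0735 for Nqo1 to 0.67 for Tiparp). CD4 T cell markers averaged 12.3 to 12.4 on the TCDD arrays, 12.2 to 12.4 on the Cl-BBQ arrays and 12.2 to 12.3 on the vehicle arrays, and 0 of 12 were called in any comparison. With TCDD 3 of the 12 were higher and 0 lower at an unadjusted limma p under 0.05, where 4.69% and 4% of all genes were. With Cl-BBQ the counts were 2 and 0, where the shares were 4.11% and 3.8%. All TCDD arrays lay above all vehicle arrays in Cd28 and Icos, as they did in 3.15% of all genes.

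**Figure D1:**
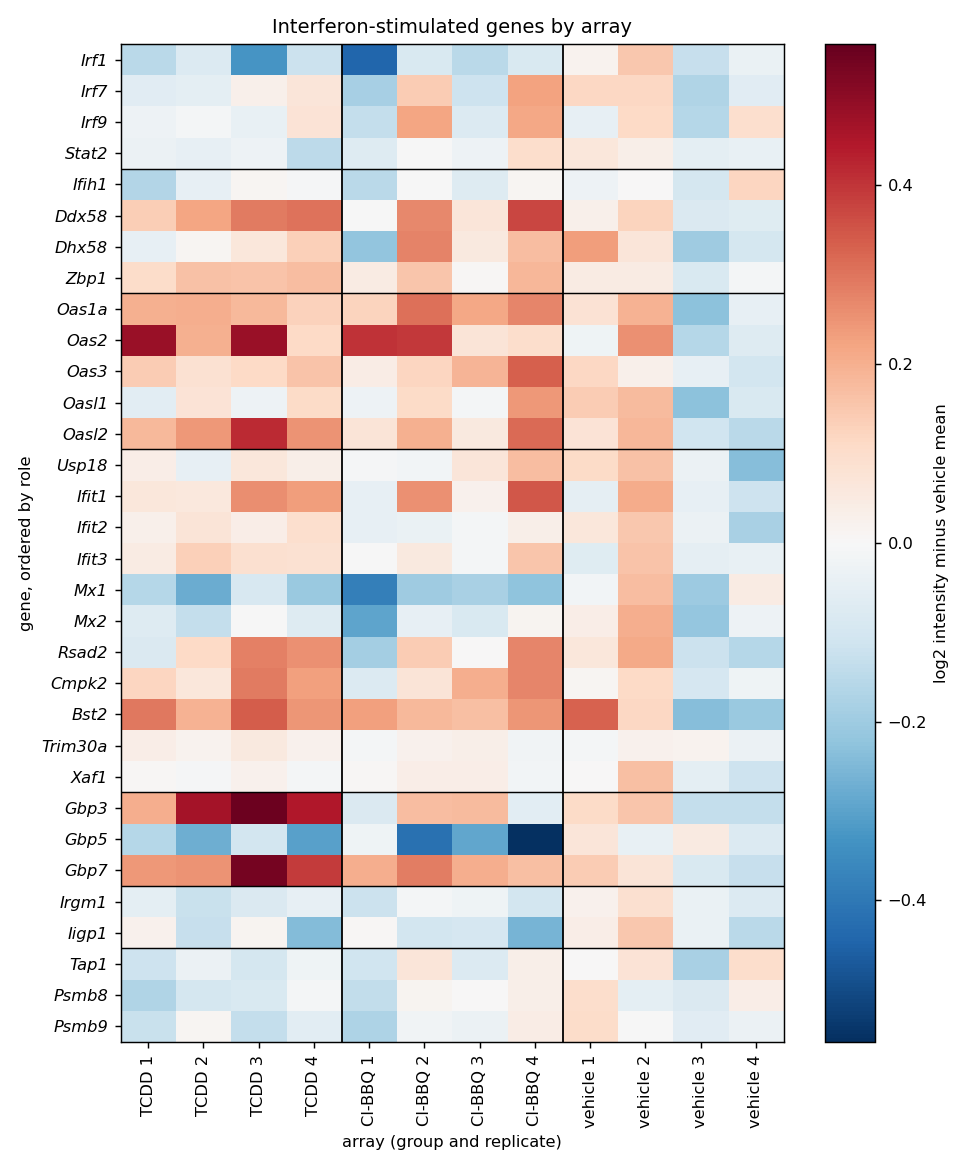
Log2 intensity of each of the 32 measured genes (rows, ordered by role) on each of the 12 arrays (columns) as the difference from the mean of the 4 vehicle arrays; red is higher and blue lower. Gbp3 and Gbp7 were above the vehicle mean on all TCDD arrays and Gbp5 below it, and most rows were low on vehicle arrays 3 and 4.

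The first comparison asks what a single dose of TCDD to the host changed. With TCDD the GBP genes Gbp7 and Gbp3 rose, by 1.28-fold and 1.33-fold, and the other 30 of 32 measured members were not called (adjusted p under 0.05 in limma over all genes, n = 4 per group). That was 6.25% of the members called, where 1.24% of all genes were called (0.873% higher). The median log2 change of the members was 0.029, beside 0.0042 over all genes, and 19 members lay above 0 and 13 below. In bulk RNA a change in the share of cells that express a gene cannot be told apart from a change per cell.

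Gbp7 encodes a guanylate-binding GTPase. It read 10.66, 10.66, 10.95 and 10.80 on the TCDD arrays, against 10.56, 10.49, 10.33 and 10.28 on the vehicle arrays (probe set 10496569). Every TCDD array lay above every vehicle array. The log2 difference was 0.35 (95% interval 0.19 to 0.51; limma adjusted p = 0.0274). Gbp3, its neighbour on chromosome 3, read 9.80, 10.06, 10.14 and 10.04 on the TCDD arrays, against 9.70, 9.75, 9.46 and 9.47 on the vehicle arrays (probe set 10496580). These groups did not overlap either, although TCDD array 1 lay only just above vehicle array 2, and in both genes vehicle arrays 3 and 4 were the lowest. The log2 difference was 0.41 (interval 0.21 to 0.62; limma adjusted p = 0.0447). Without TCDD array 3 or 4, or vehicle array 3 or 4, neither gene was called; Gbp3 was also not called without TCDD array 2, vehicle array 1 or the array labelled Cl-BBQ 3, which enters through the shared spread, and both lost the call after median centring and when all probe sets were kept as separate features. The log2 differences stayed between 0.29 and 0.49 in all these fits.

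Gbp5, the GBP gene next to Gbp7 on that chromosome and a GTPase known for its part in inflammasome assembly in macrophages, lay the other way. It read 8.93, 8.82, 8.98 and 8.78 on the TCDD arrays, against 9.16, 9.05, 9.14 and 9.01 on the vehicle arrays. All TCDD arrays were below all vehicle arrays, but the log2 difference of -0.21 (interval -0.42 to -0.0015) was not called (limma adjusted p = 0.57). Across the members 4 had all TCDD arrays above vehicle (Gbp3, Gbp7, Ddx58 and Zbp1) and 1 had them below (Gbp5). Over all genes the arrays of these groups did not overlap in 5.8%, 3.15% with TCDD above and 2.65% with it below. Outside the member list Gbp2b, Gbp4, Gbp8, Gbp9 and Gbp11 were measured and not called with TCDD. They averaged 6.69, 11.63, 10.993, 12.01 and 9.06 on the TCDD arrays, against 6.69, 11.70, 11.003, 12.05 and 9.05 on the vehicle arrays. The probe sets that Gbp2 and Gbp6 share with other GBP genes differed by 0.0060 and -0.087. The rise of Gbp7 and Gbp3 was thus not one of the measured GBP genes as a family. GBP genes are similar in sequence, so signal of one on another's probe set cannot be told apart here.

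**Figure D2:**
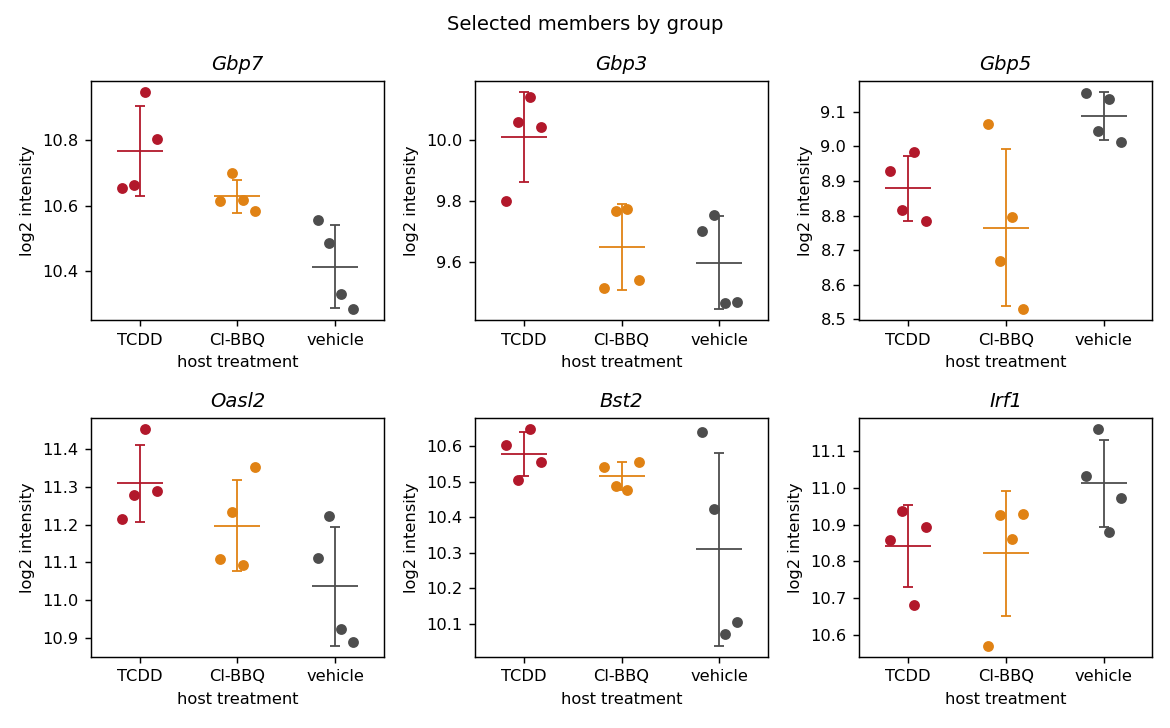
Log2 intensity on each array (points) with mean and SD (bars, n = 4) for Gbp7, Gbp3, Gbp5, Oasl2, Bst2 and Irf1 in TCDD, Cl-BBQ and vehicle hosts; each panel has its own axis range. TCDD arrays lay above all vehicle arrays for Gbp7 and Gbp3 and below them for Gbp5, while the Cl-BBQ arrays lay above all vehicle arrays only for Gbp7 of these 6.

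The 2 measured immunity-related GTPases, Irgm1 and Iigp1, which act on vacuole membranes, were not called and had log2 differences of -0.076 and -0.083 with TCDD. Antigen processing genes likewise had small negative differences. Tap1, a subunit of the peptide transporter that feeds MHC class I, read 11.06, 11.15, 11.08 and 11.15 on the TCDD arrays, against 11.18, 11.26, 10.998 and 11.28 on the vehicle arrays, and the groups overlapped. Psmb8, a catalytic subunit of the immunoproteasome, read 11.53, 11.60, 11.61 and 11.69 on the TCDD arrays, against 11.80, 11.64, 11.62 and 11.74 on the vehicle arrays, again with overlap. Psmb9, another such subunit, differed by -0.075. Over these 3 genes the 95% intervals ran from -0.20 to 0.067, so that a single-gene rise above 1.05-fold lay outside them.

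None of the 4 transcription factors was called with TCDD. Irf1, a transcription factor gene that interferon-gamma induces, read 10.86, 10.94, 10.68 and 10.89 on the TCDD arrays, against 11.03, 11.16, 10.88 and 10.97 on the vehicle arrays (log2 difference -0.17, interval -0.35 to 0.0098; limma adjusted p = 0.622). Its arrays overlapped by 1 vehicle array. Irf7, the factor that amplifies type I interferon production, read 9.68, 9.70, 9.78 and 9.82 on the TCDD arrays, against 9.87, 9.86, 9.58 and 9.68 on the vehicle arrays. Irf9, the DNA-binding partner of STAT2, read 10.27, 10.28, 10.25 and 10.37 on the TCDD arrays, against 10.25, 10.41, 10.13 and 10.39 on the vehicle arrays. In both genes the TCDD arrays lay inside the vehicle range. Stat2 read 10.68, 10.67, 10.69 and 10.57 on the TCDD arrays, against 10.78, 10.75, 10.66 and 10.67 on the vehicle arrays, with a log2 difference of -0.062 and overlapping groups.

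Sensors of foreign nucleic acid held no called gene. Ddx58, the gene of the RNA sensor RIG-I, read 11.42, 11.51, 11.57 and 11.59 on the TCDD arrays, against 11.31, 11.41, 11.20 and 11.22 on the vehicle arrays, without overlap (log2 difference 0.24; limma adjusted p = 0.218). Zbp1, a sensor of Z-form nucleic acid that can start necroptosis, read 12.29, 12.35, 12.34 and 12.36 on the TCDD arrays, against 12.23, 12.23, 12.10 and 12.17 on the vehicle arrays, also without overlap (log2 difference 0.15; limma adjusted p = 0.171). Dhx58, which encodes the RIG-I-like protein LGP2, overlapped, with 9.91, 9.97, 10.03 and 10.10 on the TCDD arrays, against 10.19, 10.03, 9.76 and 9.86 on the vehicle arrays. Ifih1, the gene of the sensor MDA5, differed by -0.052.

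The OAS genes encode or resemble the synthetases that activate RNase L. All 5 among the members had positive differences with TCDD, of 0.024 to 0.32, none called, where 52.1% of all genes lay above 0. Oas1b and Oas1c, measured outside the member list, averaged 9.40 and 8.32 on the TCDD arrays, against 9.38 and 8.39 on the vehicle arrays. Oasl2 read 11.22, 11.28, 11.45 and 11.29 on the TCDD arrays, against 11.11, 11.22, 10.92 and 10.89 on the vehicle arrays (log2 difference 0.27, interval 0.10 to 0.44; limma adjusted p = 0.159). Its lowest TCDD array and its highest vehicle array met at 11.2. Oas2, the member with the largest spread within groups, read 10.41, 10.12, 10.40 and 10.03 on the TCDD arrays, against 9.90, 10.18, 9.77 and 9.85 on the vehicle arrays (log2 difference 0.32; limma adjusted p = 0.308). TCDD arrays 1 and 3 stood above the rest. Oas1a read 9.96, 9.97, 9.95 and 9.90 on the TCDD arrays, against 9.85, 9.96, 9.54 and 9.72 on the vehicle arrays, with overlap at vehicle array 2. Oas3 and Oasl1 differed by 0.12 and 0.024.

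Of 11 antiviral effectors 9 had positive differences with TCDD and 2 negative ones, none called. Bst2, the gene of tetherin, which holds virus particles at the cell surface, read 10.60, 10.50, 10.65 and 10.56 on the TCDD arrays, against 10.64, 10.42, 10.07 and 10.10 on the vehicle arrays (log2 difference 0.27; limma adjusted p = 0.366). Vehicle arrays 1 and 2 lay within or near the TCDD range and arrays 3 and 4 well below it; without vehicle array 1 the gene was called, at a log2 difference of 0.38 (limma adjusted p = 0.0384). Rsad2, the gene of the antiviral enzyme viperin, read 10.03, 10.22, 10.39 and 10.36 on the TCDD arrays, against 10.17, 10.32, 9.99 and 9.95 on the vehicle arrays, which overlapped. Mx1, a dynamin-like GTPase gene that is disrupted in C57BL/6 mice, lay lower, at 8.97, 8.85, 9.04 and 8.92 on the TCDD arrays, against 9.11, 9.30, 8.93 and 9.17 on the vehicle arrays (log2 difference -0.18; limma adjusted p = 0.553). Only vehicle array 3 lay within its TCDD range. The RNA-binding Ifit1, Ifit2 and Ifit3 differed by 0.15, 0.058 and 0.087, and the nucleotide kinase gene Cmpk2, beside Rsad2 in the genome, by 0.18. Mx2, Usp18, which removes ISG15 from proteins and restrains the type I receptor, Trim30a and Xaf1 differed by -0.071, 0.021, 0.035 and 0.0030.

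At an unadjusted p under 0.05, 10 of the 32 members differed with TCDD, 8 higher and 2 lower, where 8.69% of all genes did (4.69% higher and 4% lower). The 95% intervals of all members lay between -0.42 and 0.62, so a fall of more than 1.34-fold or a rise of more than 1.53-fold lay outside the interval of every measured member. Such intervals are those of single genes, without correction for their number.

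**Figure D3:**
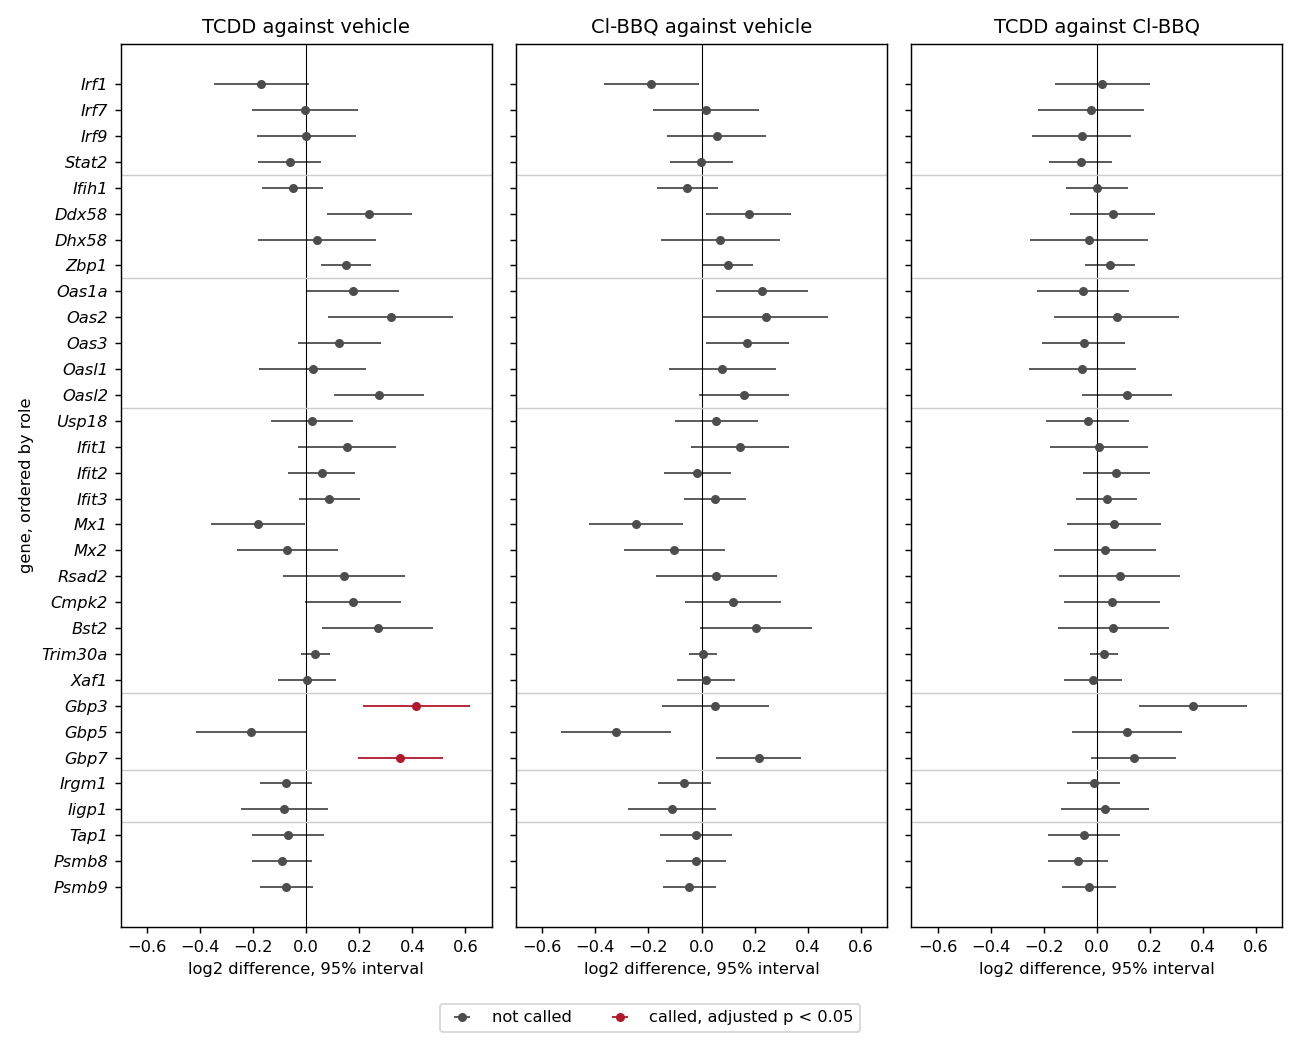
Log2 difference with its 95% interval for each of the 32 measured genes (rows, ordered by role) in 3 panels, for TCDD minus vehicle, Cl-BBQ minus vehicle and TCDD minus Cl-BBQ; red marks called genes. Gbp3 and Gbp7 in the TCDD panel are the 2 called values, and every interval lies between -0.53 and 0.62.

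The second comparison asks the same of 2 doses of Cl-BBQ. None of the 32 members was called by limma with Cl-BBQ, with or without the array labelled Cl-BBQ 3, where 0.196% of all genes were called (0.145% higher and 0.0502% lower); 9 members had an unadjusted p under 0.05, 6 higher and 3 lower, where 7.91% of all genes did (4.11% higher and 3.8% lower). The median log2 change of the members was 0.051, or 0.057 without that array, beside 0.011 over all genes. Without it the log2 difference from vehicle was 0.22 for Gbp7, 0.011 for Gbp3, -0.33 for Gbp5, 0.23 for Oas1a, 0.21 for Ddx58, -0.27 for Mx1 and -0.20 for Irf1, none called. Both comparisons share the vehicle arrays, so their values are given side by side and not as repeats of each other. In the fit of all arrays none of the AhR targets that checked the treatment was called with Cl-BBQ either.

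Gbp7 read 10.61, 10.70, 10.62 and 10.58 on the Cl-BBQ arrays, all above the 10.28 to 10.56 of the vehicle arrays (log2 difference 0.22, interval 0.055 to 0.38; limma adjusted p = 0.452). It was the 1 member whose Cl-BBQ and vehicle arrays did not overlap, where 3.85% of all genes had no overlap (2.27% above and 1.58% below). Gbp3 read 9.51, 9.77, 9.77 and 9.54 on the Cl-BBQ arrays, inside and just above the vehicle range of 9.46 to 9.75 (log2 difference 0.052; limma adjusted p = 0.923). Gbp5 read 9.06, 8.67, 8.80 and 8.53 on the Cl-BBQ arrays, against 9.01 to 9.16 on the vehicle arrays (log2 difference -0.32, interval -0.53 to -0.12; limma adjusted p = 0.313). Cl-BBQ array 1 lay among the vehicle arrays and the other 3 below them; without it Gbp5 was called lower, at a log2 difference of -0.42 (limma adjusted p = 0.0391).

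Oas1a read 9.89, 10.08, 9.98 and 10.04 on the Cl-BBQ arrays, against 9.85, 9.96, 9.54 and 9.72 on the vehicle arrays (log2 difference 0.23; limma adjusted p = 0.463). All 5 OAS genes among the members had positive differences with Cl-BBQ, of 0.078 to 0.24, where 54.8% of all genes lay above 0. Oas1b and Oas1c, outside the member list, lay slightly lower, at means of 9.32 and 8.36 with Cl-BBQ, against 9.38 and 8.39 with vehicle. Ddx58 read 11.28, 11.55, 11.35 and 11.66 on the Cl-BBQ arrays, against 11.20 to 11.41 on the vehicle arrays. Mx1 read 8.75, 8.93, 8.95 and 8.90 on the Cl-BBQ arrays, against 8.93 to 9.30 on the vehicle arrays (log2 difference -0.25; limma adjusted p = 0.418). Vehicle array 3 again lay with the treated arrays in this gene. Irf1 read 10.57, 10.93, 10.86 and 10.93 on the Cl-BBQ arrays, against 10.88 to 11.16 on the vehicle arrays (log2 difference -0.19; limma adjusted p = 0.6), with Cl-BBQ array 1 the lowest of all 12. Irf7, Irf9 and Stat2 had log2 differences of 0.018, 0.057 and -0.0012. The antigen processing genes differed by -0.046 to -0.022.

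Set against each other at their own doses and schedules, no member was called between TCDD and Cl-BBQ by limma over all genes; 1 member had an unadjusted p under 0.05, where 2.99% of all genes did (1.62% higher and 1.37% lower), and 0.015% of all genes were called. That member was Gbp3, with all TCDD arrays (9.80 to 10.14) above all Cl-BBQ arrays (9.51 to 9.77). Its log2 difference was 0.36 (interval 0.16 to 0.57; limma adjusted p = 0.948), and 0.40 without the array labelled Cl-BBQ 3 (limma adjusted p = 0.999). Over all genes the arrays of these groups did not overlap in 2.04%, 1.24% with TCDD above and 0.797% with it below. The difference was 0.14 for Gbp7 (interval -0.022 to 0.30), 0.11 for Oasl2 (interval -0.056 to 0.28) and 0.11 for Gbp5 (interval -0.094 to 0.32). On the negative side Psmb8 differed by -0.069 (interval -0.18 to 0.044), Stat2 by -0.061 (interval -0.18 to 0.058) and Tap1 by -0.047 (interval -0.18 to 0.089). The members' median difference was 0.025, beside -0.0033 over all genes, and 0.018 without the array labelled Cl-BBQ 3. Leaving out 1 array at a time gave -0.024 (without Cl-BBQ array 1) to 0.039, so that its sign turned with 1 array.

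The members varied together from array to array within groups. Deviations from the group mean correlated between members at a median r of 0.49 over 496 pairs and 12 arrays, and 86.7% of the pairs were above 0, whereas the median r of a member with all genes was 0.022 at the middle of the members. The r values come from the same arrays and 9 residual degrees of freedom and describe these arrays only. Gbp5 was the exception, with a median r of -0.53 with the other members, and Iigp1 (0.012), Trim30a (0.13) and Oas2 (0.15) hardly followed them. Irf7, Mx2 and Oasl1 followed the set most closely (0.66 each).

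Averaged over the members, the vehicle arrays spread most. Relative to the vehicle mean, the average over the 32 members was 0.059, 0.11, -0.11 and -0.066 on vehicle arrays 1 to 4. In 23 members (71.9%) arrays 3 and 4 both lay below arrays 1 and 2, and in 0 did both lie above them; over all genes those shares were 18.8% and 10.3%. This split was noticed in these data and is not a label of the study. The averages were 0.027, 0.038, 0.10 and 0.072 on the TCDD arrays and -0.056, 0.080, 0.0098 and 0.094 on the Cl-BBQ arrays. Averaged over all members, the treated arrays thus lay inside the range of the vehicle arrays.

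**Figure D4:**
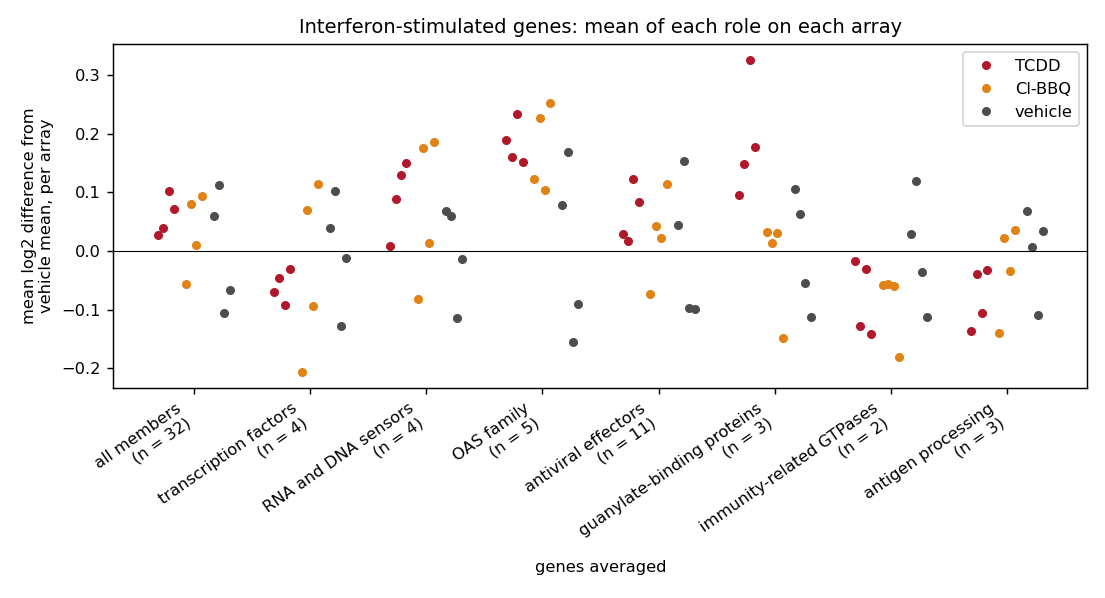
Mean log2 difference from the vehicle mean over the genes of each role (n genes on the axis), 1 point per array, for TCDD, Cl-BBQ and vehicle hosts. Over all members the TCDD and Cl-BBQ arrays fall between the lowest and highest vehicle arrays (-0.11 and 0.11).

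Further genes of the pathway, 116 in number with 103 measured, were read from the same fit. This list was chosen with earlier results of these data known, so its called shares are a description and no test of the pathway. With TCDD 4 rose (Mlkl, Plac8, Ifngr1 and Socs3), 1 fell (Irf8) and 98 were not called, or 4.85% called where 1.24% of all genes were (0.873% higher and 0.366% lower). With Cl-BBQ 2 rose (Mlkl and Plac8), 0 fell and 101 were not called, or 1.94% where 0.196% of all genes were. Between TCDD and Cl-BBQ 0 were called by limma, and 4 of the 103 (3.88%) had an unadjusted p under 0.05, where 2.99% of all genes did.

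Among 12 ligand genes none was called. Ifng, the gene of interferon-gamma, averaged 7.98 ± 0.41 with TCDD, 7.79 ± 0.25 with Cl-BBQ and 7.95 ± 0.43 with vehicle (SD, n = 4), and the arrays of all 3 groups overlapped. Its log2 difference from vehicle had an interval of -0.42 to 0.46 for TCDD and -0.60 to 0.27 for Cl-BBQ.

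Of 9 receptor and kinase genes Ifngr1, the ligand-binding chain of the interferon-gamma receptor, rose with TCDD. It read 10.96, 11.15, 11.11 and 11.23 on the TCDD arrays, 10.93, 11.11, 10.96 and 11.01 on the Cl-BBQ arrays and 10.79, 10.80, 10.63 and 10.71 on the vehicle arrays. Every treated array lay above every vehicle array. The change was 1.30-fold with TCDD (limma adjusted p = 0.00468) and 1.21-fold with Cl-BBQ, not called (limma adjusted p = 0.128), or 1.22-fold without the array labelled Cl-BBQ 3 (limma adjusted p = 0.169). Ifngr2, the signalling chain, lay lower, with 8.32, 8.63, 8.38 and 8.45 on the TCDD arrays, 8.08, 8.97, 8.62 and 8.71 on the Cl-BBQ arrays and 9.01, 8.99, 8.92 and 8.98 on the vehicle arrays. All TCDD arrays were below all vehicle arrays, yet the log2 difference of -0.53 (interval -0.82 to -0.24) missed the threshold (limma adjusted p = 0.0881). The type I receptor genes Ifnar1 and Ifnar2 had log2 differences of 0.018 and -0.22 with TCDD and 0.055 and -0.11 with Cl-BBQ, none called.

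Of 9 inhibitors Socs3, a feedback inhibitor of cytokine receptors that use JAK kinases, rose 1.37-fold with TCDD (8.54 ± 0.05 against 8.09 ± 0.09, SD, n = 4 each; limma adjusted p = 0.0111) and was 1.26 times vehicle with Cl-BBQ, not called (limma adjusted p = 0.176). Without the array labelled Cl-BBQ 3 it was called with Cl-BBQ as well, at 1.34-fold (limma adjusted p = 0.0442). Socs1, the main feedback inhibitor of interferon receptors, had log2 differences of -0.019 with TCDD and 0.026 with Cl-BBQ.

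Among 73 other ISGs 2 rose and 1 fell with TCDD. Mlkl, the effector of necroptosis, read 9.30, 9.28, 9.55 and 9.44 on the TCDD arrays, 9.19, 9.05, 8.92 and 8.99 on the Cl-BBQ arrays and 8.57, 8.54, 8.08 and 8.51 on the vehicle arrays. The 3 groups did not overlap in this gene, and it was 1.96-fold higher with TCDD (limma adjusted p = 0.00014) and 1.53-fold higher with Cl-BBQ (limma adjusted p = 0.0335). Plac8, which encodes a cysteine-rich protein of lymphoid and myeloid cells, was 1.77-fold higher with TCDD (limma adjusted p = 0.00201) and 1.65-fold higher with Cl-BBQ (limma adjusted p = 0.0335). Its levels were 11.93 ± 0.10 with TCDD, 11.83 ± 0.07 with Cl-BBQ and 11.10 ± 0.37 with vehicle (SD, n = 4 each). Both calls with Cl-BBQ held without the array labelled Cl-BBQ 3 (limma adjusted p = 0.0374 and 0.0492) and were lost in 5 of the 12 fits that left out 1 array. Of the 9 other settings, Mlkl lost its Cl-BBQ call in 3 (limma adjusted p up to 0.195) and Plac8 in 4 (up to 0.226).

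Irf8, a transcription factor of myeloid and B cells that activated T cells also express, was 1.45-fold lower with TCDD (8.42 ± 0.10 against 8.96 ± 0.24, SD, n = 4 each; limma adjusted p = 0.0411), a call lost in 7 of the 12 fits that left out 1 array and in 2 of the 9 other settings. It was 1.32-fold lower with Cl-BBQ, not called (limma adjusted p = 0.313), where the array labelled Cl-BBQ 3 read 8.90 and the other 3 read 8.41 to 8.47; without that array it was 1.43-fold lower, still not called (limma adjusted p = 0.0861). Of the 12 measured B and plasma cell markers Cd22 and Bank1 fell with TCDD, by 1.94-fold and 1.40-fold, and of 16 myeloid and dendritic cell markers Cd74 fell 1.35-fold (limma adjusted p = 0.00364, 0.0392 and 0.0297), where 0.366% of all genes were called lower. The Bank1 call was lost in 6 of the 12 fits that left out 1 array and 3 of the 9 other settings, the Cd74 call in 6 and 2, and the Cd22 call in none of these 21. With TCDD 5 of the 12 B and plasma cell markers lay above 0, with a median log2 change of -0.0098, and Cd79b, a chain of the B cell receptor, was 0.23 higher at an unadjusted p of 0.0271 (limma adjusted p = 0.459). Of the 16 myeloid and dendritic cell markers 8 lay above 0 and 8 below. The summed log2 level of the B and plasma cell list was 76.2 to 77.7 on the TCDD arrays, 77.3 to 77.6 on the Cl-BBQ arrays and 77.4 to 79.4 on the vehicle arrays. That of the myeloid and dendritic list was 103.1 to 104.4 on the TCDD arrays, 104.3 to 104.7 on the Cl-BBQ arrays and 103.1 to 105.3 on the vehicle arrays, with 1 of 16 called. Plasmacytoid dendritic cells are known for type I interferon, and their 6 measured markers averaged 7.32 to 7.49 on the TCDD arrays, 7.39 to 7.55 on the Cl-BBQ arrays and 7.39 to 7.48 on the vehicle arrays, with 0 called. The 2 CD8 T cell markers averaged 8.37 to 8.70 on the TCDD arrays, 8.32 to 8.54 on the Cl-BBQ arrays and 8.36 to 9.18 on the vehicle arrays. Of these, Cd8a ran from 6.96 to 8.47 on the vehicle arrays. The 5 NK cell markers averaged 5.26 to 5.39, 5.18 to 5.54 and 5.38 to 5.55 on the TCDD, Cl-BBQ and vehicle arrays. In both lists 0 were called. The part of other cells in the Irf8 difference, and in those of the members, was not tested.

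**Figure D5:**
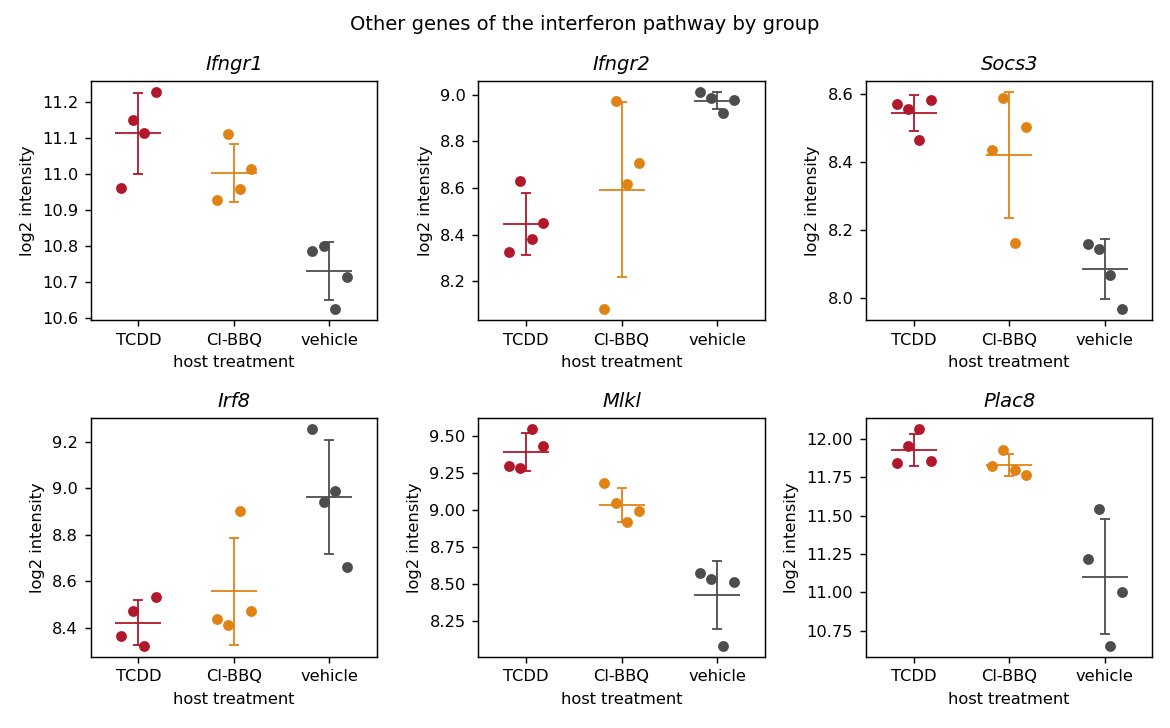
Log2 intensity on each array (points) with mean and SD (bars, n = 4) for Ifngr1, Ifngr2, Socs3, Irf8, Mlkl and Plac8 in TCDD, Cl-BBQ and vehicle hosts; each panel has its own axis range. All TCDD arrays lie above all vehicle arrays for Ifngr1, Socs3, Mlkl and Plac8 and below them for Ifngr2 and Irf8.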

How the data were processed

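The authors deposited log2 intensities per probe set, made with RMA (robust multi-array average: background correction, quantile normalization and summarization) per the submitters' processing notes; its version and settings are not stated in the labels. The values (2.49 to 14.2) gave the scale. Of 35556 probe sets 21789 carried 1 gene symbol in the platform annotation, 1621 several and 12146 were not listed; RefSeq (GRCm38.p6) held the Entrez IDs of 21698. The probe set with the highest mean was kept per gene, leaving 19938 genes with no filter on dim ones; the number of arrays limits the precision.

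One limma model (version 3.58.1, R 4.3.3) held the 12 arrays: 1 coefficient per group, 9 residual degrees of freedom, empirical Bayes with an intensity trend, two-sided tests, Benjamini-Hochberg over all genes, called under 0.05. Fold changes are 2 raised to the log2 difference. The fit was tested on simulated data with independent genes and known changes of 0.5 to 2 log2, and recovered 45 of 50 genes changed by 0.5. Of the 206 calls for simulated TCDD against vehicle 11 were false, and simulated Cl-BBQ against vehicle, which held no change, gave 0 calls. That test did not cover changes as small as those of the members, or genes that vary together. The labels call the arrays biological replicates; whether the numbers 1 to 4 mark a shared day or litter is not stated. Deviations from the group mean on same-numbered TCDD and Cl-BBQ arrays correlated at r 0.61, 0.11, 0.16 and 0.37, from the data and not the labels. For vehicle r was -0.070, 0.14, 0.040 and 0.18 with TCDD, and -0.13, 0.087, -0.0088 and -0.036 with Cl-BBQ. Arrays of unlike number were not compared, so these r cannot show whether the numbers pair arrays. A replicate block changed no member's call.

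Alternatives were a replicate block, quantile normalization, median centring, no trend, array weights, fits of 2 groups, a filter at a mean log2 of 6, other probe set rules and leaving out each array. The members, lists, tests and naming rule were chosen with earlier results of these data known. The rule gave values on every array for called members, the 3 of lowest p in each direction per comparison, the 3 of largest spread within groups and the transcription factors, and named the called pathway and marker genes; Bst2 and Zbp1 were chosen after their values were seen. Figures were drawn with matplotlib 3.10.9 (Python 3.11.15).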

Additional observations from a re-analysis of the deposited data

Results flagged for a closer look

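Among 96 groups of 4 arrays tested for a value far from the others (32 genes in 3 groups), 3 stood out by Dixon's ratio, where chance gives about 1 in 20. Stat2 read 10.57 on TCDD array 4, against 10.67 to 10.69 on the other TCDD arrays. Ifit3 read 11.73 on vehicle array 2, against 11.50 to 11.53 on the other vehicle arrays. Psmb8 read 11.56 on Cl-BBQ array 1, against 11.70 to 11.73 on the other Cl-BBQ arrays. With limma run on all probe sets as separate features, 0 members were called against vehicle, so that Gbp3 and Gbp7 were not called either. With Cl-BBQ 0 of all genes were called in that fit. The other probe sets that name a listed gene, alone or with others, were also not called against vehicle, and the fit cannot set them apart from the members.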

How the results depend on the processing

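The count of members called with TCDD was 2 in limma and ranged from 0 to 2 with each array left out in turn; it was 0 after median centring and 0 with all probe sets as separate features, and 2 under the other 7 alternatives, the replicate block included. With Cl-BBQ the count was 0, with 0 to 1 when each array was left out and 0 under the other 9 alternatives; between TCDD and Cl-BBQ it was 0 in all 21. The replicate block left every call of a named member as it was (Gbp7 with TCDD at an adjusted p of 0.0225 and Gbp3 at 0.0176). The members' median log2 change ran from -0.0018 to 0.069 with TCDD, from 0.0041 to 0.094 with Cl-BBQ and from -0.024 to 0.039 between the compounds. Its direction turned without vehicle array 3 for TCDD and without Cl-BBQ array 1 between the compounds. In all alternatives the median moved by less than the spread between arrays. That held even where the direction turned, so it does not show a stable direction. The median change of all genes lay between -0.013 and 0.018 under all 9 of these settings other than a left-out array. Over all genes the calls with TCDD were 247, but 397 with the replicate block, 391 with array weights and 160 with separate probe sets. With Cl-BBQ they were 39, but 111 with the block, 71 after quantile normalization, 13 after median centring, 18 without the trend, 11 in the fit of 2 groups and 0 with separate probe sets; between the compounds they were 3, but 5 with the block, 9 with array weights and 0 under quantile normalization, no trend, 2 groups or separate probe sets. The 4 arrays per group, with a pooled SD of 0.12 log2 at the middle of the members, limit which small differences can be called.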
